A study of Medicago truncatula with 16 samples.

Results

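The genes described here are 4 oleosin genes and 1 diacylglycerol O-acyltransferase (DGAT) gene of *Medicago truncatula*, 5 of the 44473 genes in the count table. They are MtrunA17_Chr1g0196841 (chromosome 1), the orthologue of Arabidopsis *AtOLEO1*, MtrunA17_Chr6g0449621 (chromosome 6), the orthologue of *AtOLEO4*, the oleosins MtrunA17_Chr2g0307331 (chromosome 2) and MtrunA17_Chr3g0139191 (chromosome 3), and the DGAT MtrunA17_Chr2g0299671 (chromosome 2), the orthologue of *AtTAG1*. They were taken by identifier, with the orthologues as the study gives them. The study had chosen them on radicle data by 2 criteria. They fell in a cluster of genes that it describes as raised only in PEG-treated 1 mm radicles, among treated and untreated radicles of both lengths. Their chromatin was also more open there than in untreated radicles. Differences among radicle groups, at 1 mm or 5 mm, are therefore given below as a description with no test. The cotyledon libraries took no part in that choice. All 5 genes passed the filter on low counts in every model.

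Oil bodies are the organelles in which seeds store triacylglycerol, a core of oil under a single layer of phospholipids. Oleosins are small proteins anchored in that layer by a long hydrophobic hairpin, and in Arabidopsis seeds they limit the size of oil bodies and keep them from fusing during drying and freezing. DGAT enzymes add the last acyl chain to diacylglycerol and so complete triacylglycerol, and *AtTAG1* is the main DGAT of the Arabidopsis seed. In legume and Arabidopsis embryos the cotyledons hold most of the reserves, and these genes are best known for their activity during seed maturation.

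RNA-Seq covered cotyledons (C) and radicles (R) of germinating seeds of cultivar A17, in 8 groups of 2 biological replicates. C1P, C5P, R1P and R5P came from seeds with a radicle of 1 mm or 5 mm that had then spent 3 days at 10 °C in the dark in polyethylene glycol (PEG8000) at -1.7 MPa, an osmoticum that lowers water availability. C1, C5, R1 and R5 came from seeds germinated on water to the same radicle lengths, without PEG. There was no group kept cold and dark without PEG, so PEG cannot be told apart from those 3 days. The seeds pooled per sample are given as about 100 in the protocol and 50 in the description of the series, and the sources do not settle whether tissue was dried before extraction.

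Estimated counts summed to between 22012976 and 22866748 in cotyledon libraries and between 22700483 and 23257652 in radicle libraries. Levels are given as CPM, which are counts scaled to library size with TMM factors over all 16 libraries, and are not divided by gene length, so levels are compared between groups and not between genes. The replicates of a group had a Pearson correlation across genes of log2(CPM + 1) between 0.966, in C1P, and 0.994, in R5. Markers of tissues and of seed storage were chosen here by annotation from the study's tables, which hold genes picked on radicle data. They are therefore not independent of a PEG response in radicles. The 2 chlorophyll a-b binding protein genes summed to 101 to 121 CPM in C1P, against 28.8 to 30.3 CPM in R1P. In 5 mm seeds they summed to 240.5 to 309.5 CPM in C5P, against 63.9 to 75.1 CPM in R5P. Without PEG they summed to 8.86 to 9.24 CPM in C1, against 0.779 to 0.961 CPM in R1, and to 6.89 to 14.2 CPM in C5, against 7.70 to 10.4 CPM in R5. The single radicle marker, a casparian strip membrane protein gene, did not mark the radicles: it was at 9.50 to 10.5 CPM in C1, against 7.15 to 9.84 CPM in R1, and was higher in C5 (31.1 to 66.7 CPM) than in R5 (11.4 to 15.4 CPM). None of these 3 markers was at 0 in a group. The 7 genes for 11-S seed storage proteins summed to 1003 to 1248 CPM in C1P, against 229.8 to 231.7 CPM in C1. In 5 mm seeds they summed to 648.5 to 706.5 CPM in C5P, against 94.8 to 114 CPM in C5. Of these 7, 1 did not pass the filter on low counts and was not tested in any comparison. In bulk tissue, fewer cells of a type and less RNA per cell cannot be told apart.

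PEG treatment of 1 mm seeds was followed by higher transcript levels of all 5 genes in cotyledons. The 4 oleosins were between 32.7 and 336 times as high in C1P as in C1, and the DGAT was 3.3 times as high. Calls here and below needed more than a 2-fold difference (a log2 fold change beyond 1 in either direction) with an adjusted p below 0.05 in edgeR's quasi-likelihood test. Of 23060 genes tested in cotyledons, 28.7% were called in this comparison, 13.8% higher and 14.9% lower, and all 5 genes here were among the higher ones. The call of all 5 was kept in each alternative setting and without any 1 library.

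The *AtOLEO1* orthologue had 480.3 and 821 CPM in C1P, against 2.20 and 1.595 CPM in C1. The groups lay far apart. The log2 fold change was 8.39 (SE 0.41, adjusted p = 3.2e-05, edgeR). The *AtOLEO4* orthologue had 319 and 358 CPM in C1P, against 10.4 and 9.83 CPM in C1. Its level without PEG was clearly above 0, with 280 and 265 counts, and its log2 fold change was 5.03 (SE 0.52, adjusted p = 0.00036). Both C1P libraries stood well above it. MtrunA17_Chr3g0139191 had 494 and 756 CPM in C1P, against 5.21 and 3.97 CPM in C1, a log2 fold change of 7.06 (SE 0.53, adjusted p = 8.5e-05). MtrunA17_Chr2g0307331 had 44.4 and 55.6 CPM in C1P, against 0.484 and 0.445 CPM in C1. The C1 values stand for 13 and 12 counts, and the log2 fold change was 6.70 (SE 0.60, adjusted p = 0.00018). The DGAT had 15.8 and 11.98 CPM in C1P, against 3.61 and 4.60 CPM in C1, so that the groups did not overlap, and its log2 fold change was 1.72 (SE 0.28, adjusted p = 0.0027).

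**Figure D1:**
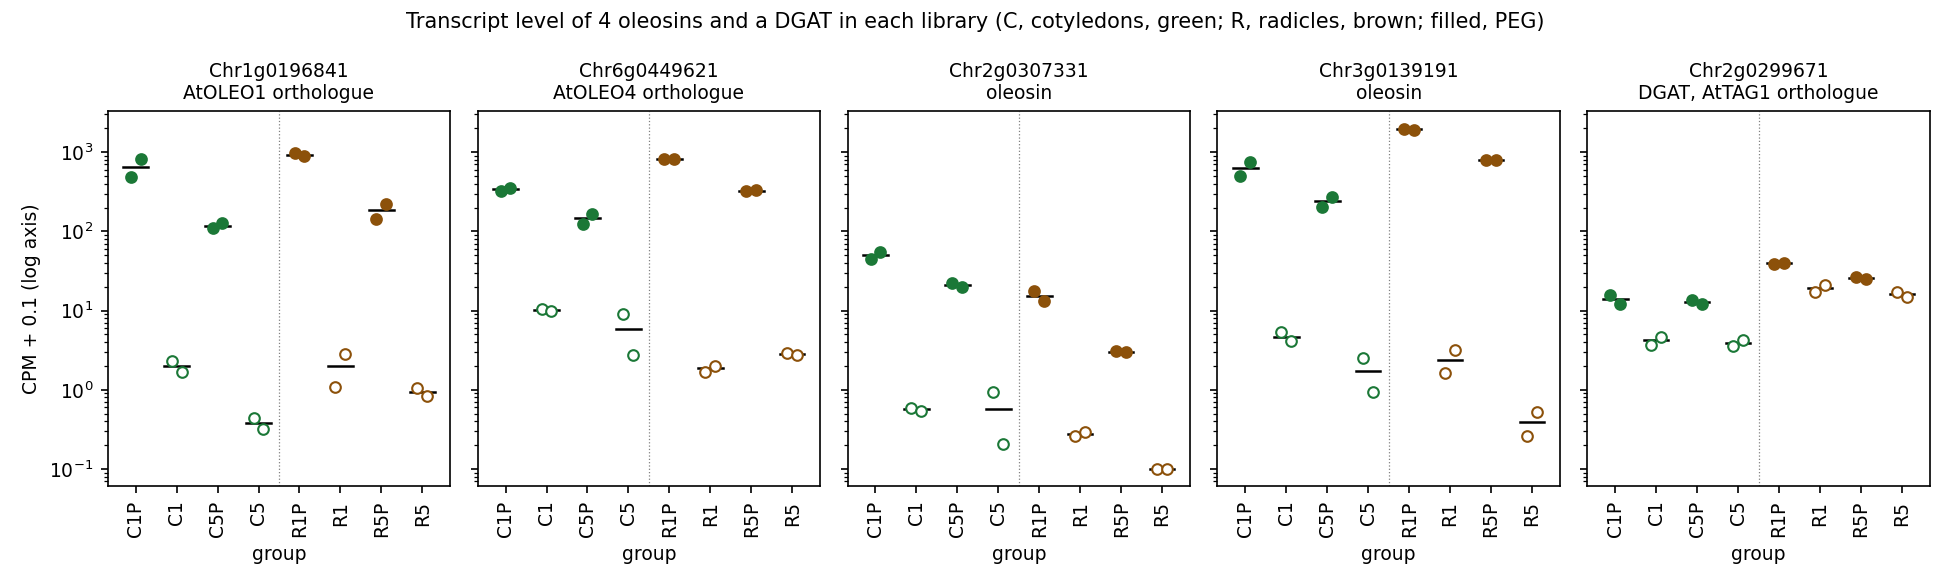
Transcript level of each gene in each of the 16 libraries, as CPM + 0.1 on a log axis, by group. Points are libraries, filled for PEG groups and open for untreated groups, green for cotyledons and brown for radicles, and bars are group means over 2 libraries. Each oleosin is higher in every PEG library than in every untreated library, whereas the DGAT without PEG was lower in cotyledons (3.46 to 4.60 CPM) than in radicles (14.8 to 21.1 CPM).

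The same 5 genes were higher in cotyledons of 5 mm seeds after PEG. Of all genes tested, 21.2% were called between C5P and C5, 9.02% higher and 12.1% lower, and again all 5 genes were called higher in each setting tried. The *AtOLEO1* orthologue had 109 and 127 CPM in C5P, against 0.337 and 0.216 CPM (8 and 6 counts) in C5, a log2 fold change of 8.66 (SE 0.45, adjusted p = 2.3e-05, edgeR). MtrunA17_Chr3g0139191 had 203 and 274 CPM in C5P, against 2.40 and 0.829 CPM in C5, a log2 fold change of 7.17 (SE 0.54, adjusted p = 9.2e-05). These groups were wide apart, and within C5 replicate 1 was the higher. The *AtOLEO4* orthologue had 125 and 166.5 CPM in C5P, against 8.98 and 2.63 CPM in C5, and its log2 fold change was 4.62 (SE 0.51, adjusted p = 0.00055). MtrunA17_Chr2g0307331 had 22.1 and 19.5 CPM in C5P, against 0.843 and 0.108 CPM (20 and 3 counts) in C5, and its log2 fold change was 5.44 (SE 0.58, adjusted p = 0.00046). The DGAT had 13.5 and 11.98 CPM in C5P, against 3.46 and 4.15 CPM in C5, and its log2 fold change was 1.68 (SE 0.28, adjusted p = 0.0036). C5 replicate 1 was the higher of the C5 libraries for all 4 oleosins. Without it, the log2 fold changes of the *AtOLEO4* orthologue, MtrunA17_Chr2g0307331 and MtrunA17_Chr3g0139191 were 5.79, 7.52 and 8.16, and without C5 replicate 2 those of the *AtOLEO4* orthologue and MtrunA17_Chr2g0307331 were 4.02 and 4.62.

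Reads of the 4 oleosins together made up 0.113% and 0.141% of the counts in the C1P libraries, against 0.00217% and 0.00187% in C1. In 5 mm seeds they made up 0.0482% and 0.0566% in C5P, against 0.00131% and 0.000459% in C5. In radicles the share was 0.318% and 0.312% in R1P and 0.117% and 0.130% in R5P, against 0.000455% and 0.000886% in R1 and 0.000432% and 0.000426% in R5. The share was lower in every untreated library than in any PEG library of the same tissue.

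Between the stages, within cotyledons, the *AtOLEO1* orthologue was lower at 5 mm both with and without PEG. Between C5P and C1P, 6.21% of all genes were called, 4.01% higher and 2.21% lower, and of the 5 genes the *AtOLEO1* orthologue alone was called. It was lower in C5P, with a log2 fold change of -2.51 (SE 0.31, adjusted p = 0.007, edgeR). The other 3 oleosins had log2 fold changes of -1.26 for the *AtOLEO4* orthologue, -1.31 for MtrunA17_Chr2g0307331 and -1.43 for MtrunA17_Chr3g0139191. Their adjusted p lay between 0.07 and 0.11. The DGAT had 13.5 and 11.98 CPM in C5P, against 15.8 and 11.98 CPM in C1P, a log2 fold change of -0.17 (SE 0.27, adjusted p = 0.7), which was 0.24 when scaled by library totals. This count depended on the model. With DESeq2, with no filter on low counts or with all 16 libraries in the model, 4 genes were called, all oleosins, and without either C5P library the call of the *AtOLEO1* orthologue was lost (adjusted p = 0.085 without replicate 1 and 0.053 without replicate 2).

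Between C5 and C1, 8.62% of all genes were called, 5.7% higher and 2.92% lower, and the *AtOLEO1* orthologue was again the single one of the 5. It fell to 0.337 and 0.216 CPM in C5, against 2.20 and 1.595 CPM in C1, a log2 fold change of -2.78 (SE 0.42, adjusted p = 0.0065, edgeR). Without C1 replicate 1 this adjusted p was 0.057. MtrunA17_Chr3g0139191 had a log2 fold change of -1.54 (SE 0.45, adjusted p = 0.072), and the *AtOLEO4* orthologue one of -0.84 (SE 0.46, adjusted p = 0.29). Without C5 replicate 1, they were at -2.46 (adjusted p = 0.032) and -1.94 (adjusted p = 0.021), which makes 3 calls, whereas without C5 replicate 2 they were at -0.93 (adjusted p = 0.22) and -0.17 (adjusted p = 0.76). The groups overlapped for MtrunA17_Chr2g0307331 (log2 fold change -0.042, SE 0.66) and for the DGAT (-0.12, SE 0.28). The value of MtrunA17_Chr2g0307331 was -2.04 without C5 replicate 1 and 0.86 without C5 replicate 2.

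Whether the PEG response of cotyledons differed between stages was tested as the contrast of C5P over C5 with C1P over C1. Of all genes, 1.22% were called, 0.559% higher and 0.663% lower, and of the 5 genes 0 were called by edgeR, 0 by DESeq2 and 0 at an unadjusted p under 0.05. The differences of the log2 fold changes were 0.27 (SE 0.49) for the *AtOLEO1* orthologue, -0.41 (SE 0.63) for the *AtOLEO4* orthologue, 0.11 (SE 0.59) for MtrunA17_Chr3g0139191 and -0.049 (SE 0.38) for the DGAT. With library totals, the values of the *AtOLEO4* orthologue (0.093) and the DGAT (0.41) were above 0. Without C5 replicate 1, the *AtOLEO4* orthologue was at 0.72, MtrunA17_Chr2g0307331 at 0.78 and MtrunA17_Chr3g0139191 at 1.07, and without C5 replicate 2 they were at -1.04, -2.12 and -0.46, with no call in either case. MtrunA17_Chr2g0307331 was at -1.27, with an SE of 0.81. A missed threshold does not show that the responses were alike.

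In radicles the same genes were described without a test. The *AtOLEO1* orthologue had 963 and 897 CPM in R1P, against 0.984 and 2.77 CPM in R1, and 143 and 224 CPM in R5P, against 0.958 and 0.735 CPM in R5. The *AtOLEO4* orthologue had 809.9 and 824 CPM in R1P, against 1.599 and 1.92 CPM in R1. In 5 mm seeds it had 323.5 and 332 CPM in R5P, against 2.83 and 2.63 CPM in R5. These levels are above those of any other group for R1P and, for R5P, within the range of the C1P libraries. MtrunA17_Chr3g0139191 had 1990 and 1884 CPM in R1P, against 1.52 and 3.035 CPM in R1, and 800.2 and 795 CPM in R5P, against 0.160 and 0.426 CPM in R5. MtrunA17_Chr2g0307331 had 17.55 and 13.2 CPM in R1P, against 0.164 and 0.192 CPM (4 and 5 counts) in R1. It had 2.97 and 2.91 CPM in R5P, against 0 counts in both R5 libraries, at least 24.9-fold higher with each R5 library set at 3 counts. The DGAT had 38.6 and 40.1 CPM in R1P, against 17.0 and 21.1 CPM in R1, and 26.5 and 24.7 CPM in R5P, against 17.0 and 14.8 CPM in R5. Its radicle levels were above all its cotyledon levels except that C1P replicate 1, at 15.8 CPM, lay between the R5 libraries.

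The order of the groups was not the same for each gene. R1P was the highest group for the *AtOLEO1* orthologue, the *AtOLEO4* orthologue, MtrunA17_Chr3g0139191 and the DGAT, and C1P was the highest for MtrunA17_Chr2g0307331. For the *AtOLEO1* orthologue, R1P was followed by C1P, R5P and C5P without overlap of neighbours, and of the untreated groups C1 and R1 overlapped. For the *AtOLEO4* orthologue, C1P and R5P overlapped, as did C5 and R5. For MtrunA17_Chr3g0139191 the order was R1P, R5P, C1P and C5P with no overlap, and R1 and C5 overlapped. For MtrunA17_Chr2g0307331 both cotyledon PEG groups stood above both radicle PEG groups, and C5 and C1 overlapped. For the DGAT all 4 radicle groups stood at the top, R1 overlapped R5, R5 overlapped C1P, C1P overlapped C5P, and C1 overlapped C5.

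After PEG treatment of 1 mm seeds, cotyledons and radicles differed in 4 of the 5 genes, in both directions. In these comparisons 1 model held all 16 libraries and 25524 genes, of which 37.6% were called between C1P and R1P, 19.8% higher and 17.8% lower in cotyledons. The radicle side was among the groups the genes were chosen on and is not independent. MtrunA17_Chr2g0307331 was higher in cotyledons, with 44.4 and 55.6 CPM in C1P, against 17.55 and 13.2 CPM in R1P, a log2 fold change of 1.70 (SE 0.38, adjusted p = 0.0025, edgeR). MtrunA17_Chr3g0139191 was lower in C1P (log2 fold change -1.63, SE 0.38, adjusted p = 0.0031), as were the *AtOLEO4* orthologue (-1.27, SE 0.36, adjusted p = 0.0095) and the DGAT (-1.50, SE 0.21, adjusted p = 4.9e-05). The *AtOLEO1* orthologue was not called (-0.52, SE 0.35, adjusted p = 0.25). The casparian strip gene was also called higher in C1P, averaging 2.305 CPM, against 0.708 CPM in R1P. So were 2 of 2 chlorophyll a-b markers and 4 of 7 storage protein genes, and 1 storage protein gene was lower. The 7 storage protein genes together ran the other way, with 1003 to 1248 CPM in C1P, against 2051 to 2086 CPM in R1P, since the lower gene, MtrunA17_Chr1g0185841, averaged 304 CPM in C1P, against 1814 CPM in R1P. Their part in these differences was not tested.

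In 5 mm seeds after PEG the same 4 genes were called in the same directions, with 40.1% of all genes called between C5P and R5P, 19.9% higher and 20.2% lower. MtrunA17_Chr2g0307331 had 22.1 and 19.5 CPM in C5P, against 2.97 and 2.91 CPM in R5P, a log2 fold change of 2.82 (SE 0.41, adjusted p = 0.0001, edgeR). MtrunA17_Chr3g0139191 was lower in C5P, with a log2 fold change of -1.74 (SE 0.38, adjusted p = 0.002). The *AtOLEO4* orthologue was at -1.17 (SE 0.35, adjusted p = 0.015), and this call was lost without C5P replicate 1 (-0.98, adjusted p = 0.12) or R5P replicate 2 (-1.15, adjusted p = 0.052). The DGAT was at -1.01 (SE 0.21, adjusted p = 0.0012), close to the limit of 1. It was at -0.96 without R5P replicate 1 and at -0.90 with library totals, where the call was lost. The *AtOLEO1* orthologue was not called (-0.64, SE 0.35, adjusted p = 0.15). Of the markers, 2 of 2 chlorophyll a-b genes and 4 of 7 storage protein genes were higher in C5P, with the 7 storage genes summing to 648.5 to 706.5 CPM in C5P, against 603.8 to 688.2 CPM in R5P. Their part was not tested.

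Without PEG, the tissues differed in another pattern. The genes were chosen as raised in R1P alone among the radicle groups. Low levels in R1 and R5 relative to R1P were thus part of that choice. A higher level in untreated cotyledons is not independent of it. Between C1 and R1, 45.4% of all genes were called, 23% higher and 22.4% lower, and of the 5 genes 1 was higher and 1 lower. The *AtOLEO4* orthologue was higher in cotyledons, with 10.4 and 9.83 CPM in C1, against 1.599 and 1.92 CPM in R1, a log2 fold change of 2.52 (SE 0.41, adjusted p = 0.00014, edgeR). The DGAT was lower, with 3.61 and 4.60 CPM in C1, against 17.0 and 21.1 CPM in R1, a log2 fold change of -2.21 (SE 0.22, adjusted p = 1.5e-06). The *AtOLEO1* orthologue overlapped between the tissues (0.0079, SE 0.42), with -0.55 without R1 replicate 1 and 0.94 without R1 replicate 2, and MtrunA17_Chr2g0307331 (1.35, SE 0.70, adjusted p = 0.12) and MtrunA17_Chr3g0139191 (1.01, SE 0.43, adjusted p = 0.06) were not called. MtrunA17_Chr3g0139191 was at 1.59 without R1 replicate 2, and it was called with library totals (1.11, adjusted p = 0.027). At this stage 2 of 2 chlorophyll a-b markers and 4 of 7 storage protein genes were higher in C1, with the 7 storage genes summing to 229.8 to 231.7 CPM in C1, against 32.4 to 37.4 CPM in R1. Their part was not tested.

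Between C5 and R5, 44.9% of all genes were called, 21.2% higher and 23.7% lower. All 5 genes here were called too, several of them on few counts. The R5 side was also among the groups the genes were chosen on and is not independent. The DGAT was lower in C5, with 3.46 and 4.15 CPM, against 17.0 and 14.8 CPM in R5, a log2 fold change of -2.06 (SE 0.22, adjusted p = 3.2e-06, edgeR), and kept this call without any 1 library. MtrunA17_Chr3g0139191 had 2.40 and 0.829 CPM (57 and 23 counts) in C5, against 0.160 and 0.426 CPM (4 and 11 counts) in R5, a log2 fold change of 2.42 (SE 0.59, adjusted p = 0.0035). Without C5 replicate 1 it was at 1.47 (adjusted p = 0.065), without C5 replicate 2 at 3.01 and without R5 replicate 2 at 3.27. MtrunA17_Chr2g0307331 had 20 and 3 counts in C5, against 0 counts in both R5 libraries, at least 4.03-fold higher with each R5 library set at 3 counts. This bound rests on C5 replicate 1, since replicate 2 is itself at 3 counts. The *AtOLEO4* orthologue was called higher in C5 (1.08, SE 0.39, adjusted p = 0.033) although the groups overlapped, and without C5 replicate 1 the difference was -0.057, and without replicate 2 it was 1.71. Its call was also lost without R5 replicate 1 (adjusted p = 0.1) or 2 (adjusted p = 0.14). The *AtOLEO1* orthologue was called lower in C5 (-1.61, SE 0.60, adjusted p = 0.036) on 8 and 6 counts in C5, against 24 and 19 counts in R5. That call was lost without any 1 of the 4 libraries compared (adjusted p between 0.056 and 0.18). Of the markers, 1 of 2 chlorophyll a-b genes, the casparian strip gene and 3 of 7 storage protein genes were higher in C5 than in R5, and 1 storage protein gene was lower. The storage genes summed to 94.8 to 114 CPM in C5, against 29.7 to 34.5 CPM in R5, and the part of these markers was not tested.

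**Figure D2:**
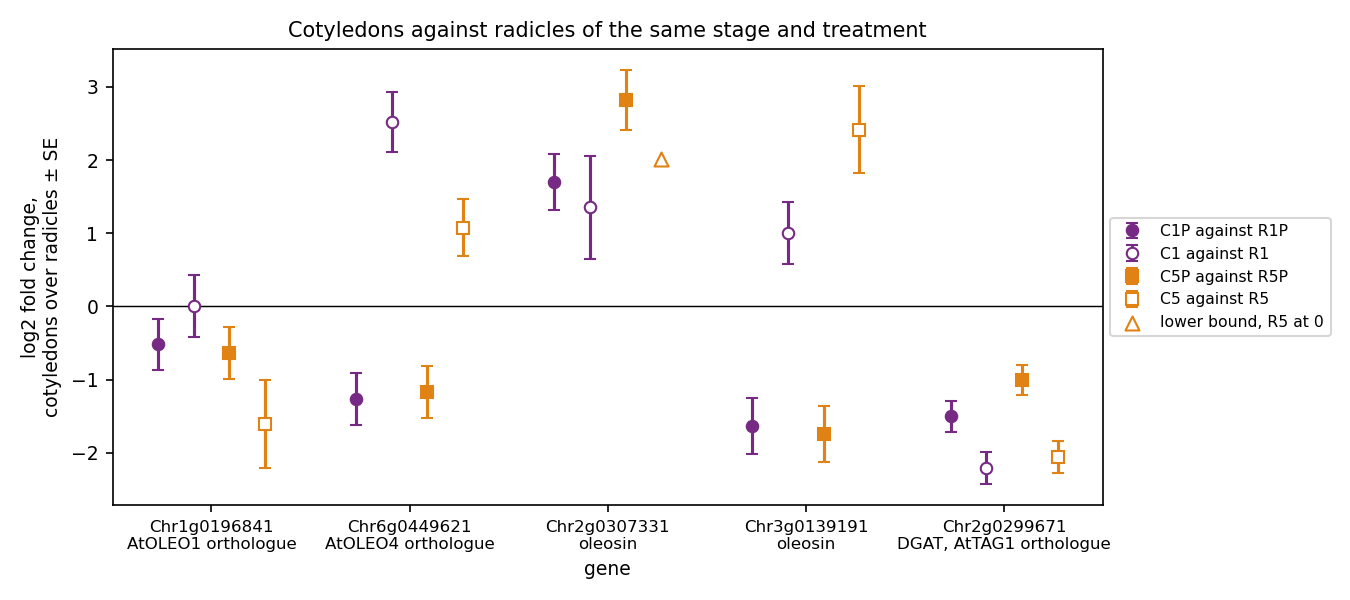
Log2 fold change of cotyledons over radicles for each gene, in PEG-treated and untreated seeds at both stages, with SE bars from the model of 16 libraries (2 libraries a group). The triangle is the lower bound for MtrunA17_Chr2g0307331, whose R5 libraries had 0 counts. The genes were chosen as raised in R1P alone among the radicle groups, so both signs are not independent of that choice. The *AtOLEO4* orthologue and MtrunA17_Chr3g0139191 lie below 0 in PEG-treated seeds (-1.17 to -1.74) and above 0 in untreated seeds (1.01 to 2.52), and the DGAT lies below 0 in all 4 comparisons.

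The difference between the PEG responses of the tissues was tested as the contrast of cotyledons with radicles. At 1 mm, 8.25% of all genes were called, 4.17% higher and 4.08% lower, and 2 of the 5 genes had a smaller response in cotyledons. The difference of log2 fold changes, cotyledons minus radicles, was -3.79 for the *AtOLEO4* orthologue (SE 0.54, adjusted p = 0.0011, edgeR) and -2.64 for MtrunA17_Chr3g0139191 (SE 0.57, adjusted p = 0.012). The call of MtrunA17_Chr3g0139191 was lost without C1 replicate 1 (adjusted p = 0.052) or R1 replicate 1 (adjusted p = 0.064), and without R1 replicate 2 it was at -3.23. The *AtOLEO1* orthologue (-0.52, SE 0.55, and -1.46 without R1 replicate 2), MtrunA17_Chr2g0307331 (0.35, SE 0.90) and the DGAT (0.71, SE 0.29, adjusted p = 0.16) were not called. Since the radicle response was part of how the genes were chosen, a larger response in radicles is not independent of that choice. Of the markers, 3 of 7 storage protein genes also had a smaller response in cotyledons, and their part was not tested.

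At 5 mm, 21% of all genes were called, 11.5% higher and 9.47% lower, and 3 of the 5 genes were. The *AtOLEO4* orthologue was at -2.24 (SE 0.53, adjusted p = 0.0089, edgeR) and MtrunA17_Chr3g0139191 at -4.16 (SE 0.70, adjusted p = 0.0012), both a smaller response in cotyledons. Without C5 replicate 1 they were at -1.11 (adjusted p = 0.025) and -3.22 (adjusted p = 0.0081), without C5 replicate 2 at -2.88 and -4.75, and without R5 replicate 2 MtrunA17_Chr3g0139191 was at -5.01. The DGAT was at 1.06 (SE 0.30, adjusted p = 0.021), a larger response in cotyledons. That call stood at the limit of 1: it was lost with RLE factors (0.99) and DESeq2 (0.99), and without C5P replicate 1 or 2, C5 replicate 1, R5P replicate 2 or R5 replicate 1 (0.93 to 1.01, adjusted p between 0.061 and 0.088). The *AtOLEO1* orthologue was at 0.97 (SE 0.70, adjusted p = 0.34). The fitted difference of MtrunA17_Chr2g0307331 was not called (adjusted p = 0.17), and it depends on the R5 libraries at 0 counts. Without C5 replicate 2 that gene was called too (adjusted p = 0.01). Of the markers, 1 of 2 chlorophyll a-b genes and 1 of 7 storage protein genes had a larger response in cotyledons, and 1 storage protein gene a smaller one. The casparian strip gene was called below 0 because it fell further in cotyledons. It averaged 4.79 CPM in C5P, against 48.9 CPM in C5, and 8.91 CPM in R5P, against 13.4 CPM in R5. The part of these markers was not tested.

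**Figure D3:**
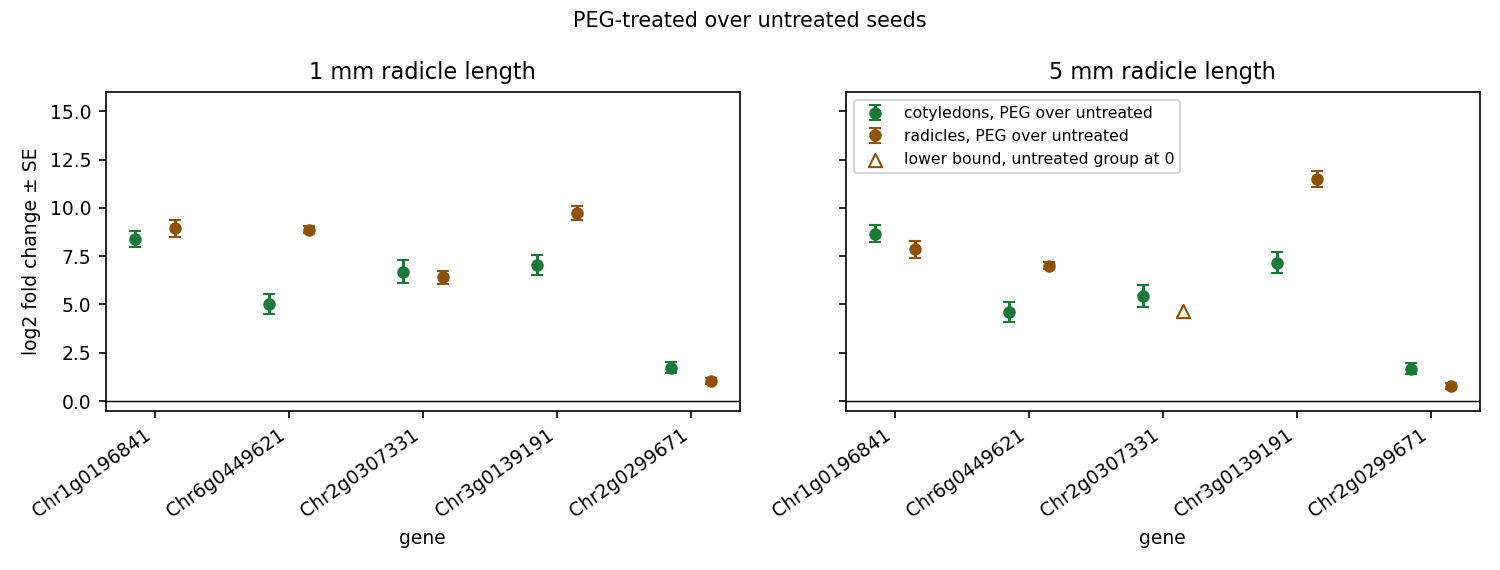
Log2 fold change of PEG-treated over untreated seeds for each gene in cotyledons (green) and radicles (brown), at 1 mm and 5 mm radicle length, with SE bars from models of the 8 libraries of each tissue. The triangle is a lower bound. The *AtOLEO4* orthologue is at 5.03 and 4.62 in cotyledons, against 8.86 and 7.01 in radicles, while the DGAT is at 1.72 and 1.68 in cotyledons, against 1.06 and 0.79 in radicles.

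Other genes of oil bodies and triacylglycerol metabolism were followed through 29 genes, chosen here by their annotation in the study's supplementary tables. The list and its groups, such as assembly and breakdown, are not the study's own. Those tables hold genes picked on radicle data, for a change in transcript level or chromatin accessibility after PEG treatment. The list was therefore not drawn independently of a PEG response in radicles. In cotyledons 27 of them passed the filter on low counts. Between C1P and C1, 11 rose and 6 fell, where 28.7% of all genes were called. The median log2 fold change of the list was 0.64, against -0.08 over all genes tested. Between C5P and C5, 11 rose and 5 fell, where 21.2% of all genes were called, with a median of 0.44, against -0.05 over all genes. Both medians were the same with genes at 3 counts or fewer set to their bound. Of the genes that rose, 10 were the same at both stages, 90.9% of each list, and of those that fell, 4 were the same (66.7% of the 6 and 80% of the 5). The part shared between stages was not worked out over all genes.

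The 3 further oleosins rose at both stages. MtrunA17_Chr7g0227501 had 1661 and 2239 CPM in C1P, against 25.7 and 21.4 CPM in C1, a log2 fold change of 6.34 (SE 0.33, adjusted p = 3.3e-05, edgeR). It was at 6.23 between C5P and C5. MtrunA17_Chr4g0062431 was at 5.17 between C1P and C1 and 5.44 between C5P and C5, and MtrunA17_Chr4g0058681 at 3.67 and 5.17. Of 5 other oil body proteins, 4 were tested and all 4 rose at both stages. Of all genes tested, 13.8% were called higher between C1P and C1 and 9.02% between C5P and C5. A putative oil body-associated protein gene, MtrunA17_Chr3g0122181, had the highest log2 fold change of the 29 between C1P and C1 (9.59, SE 0.42), with 534 and 555 CPM in C1P, against 0.596 and 0.779 CPM in C1. Next was a putative seed peroxygenase gene, MtrunA17_Chr1g0186321 (7.43, SE 0.42), of the family of calcium-binding caleosins. Between C5P and C5 these genes were at 8.29 and 9.01. A putative seipin gene, MtrunA17_Chr7g0249331, of a family that acts where oil bodies form on the endoplasmic reticulum, was at 2.79 and 2.73. The remaining one, MtrunA17_Chr2g0284751, a putative oil body-associated protein gene named to complete the group, had 93 counts over the C5P libraries, against 2 over the C5 libraries, a ratio of 52.5 (95% exact interval 14.1 to 440.0, counting error only).

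Of 7 genes of triacylglycerol assembly tested, 1 rose and 1 fell between C1P and C1, a share like that of all genes, of which 28.7% were called. Between C5P and C5, 2 rose and 2 fell, where 21.2% of all genes were called. The gene that rose at both stages was a putative 2-acylglycerol O-acyltransferase, MtrunA17_Chr7g0269371 (2.40 and 2.004, chosen after its values were seen). The gene that fell at both was a putative glycerol-3-phosphate 1-O-acyltransferase, MtrunA17_Chr1g0194391, an enzyme class that starts glycerolipid assembly, with 36.1 and 41.9 CPM in C1P, against 249 and 243 CPM in C1. Its log2 fold change was -2.69 (SE 0.31, adjusted p = 0.00062, edgeR) between C1P and C1 and -3.09 between C5P and C5.

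Among 13 genes of triacylglycerol breakdown, lipases and fatty-acyl-CoA transporters, 3 rose and 5 fell between C1P and C1, where 28.7% of all genes were called, and 2 rose and 3 fell between C5P and C5, where 21.2% were. The lowest were putative triacylglycerol lipase genes. MtrunA17_Chr1g0156901 had 3 counts over the C1P libraries, against 118 over the C1 libraries, after rounding. The ratio was 0.0393 (95% exact interval 0.00799 to 0.118, counting error only). Its log2 fold change was -3.36 (SE 0.74) between C5P and C5. MtrunA17_Chr1g0194871 was at -3.14 (SE 0.61, adjusted p = 0.0065, edgeR) between C1P and C1, and at -0.61 (adjusted p = 0.46) between C5P and C5. The highest was another putative lipase gene, MtrunA17_Chr8g0390731 (chosen after its values were seen), with 177 and 138 CPM in C1P, against 8.19 and 6.86 CPM in C1, and log2 fold changes of 4.36 and 4.77.

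**Figure D4:**
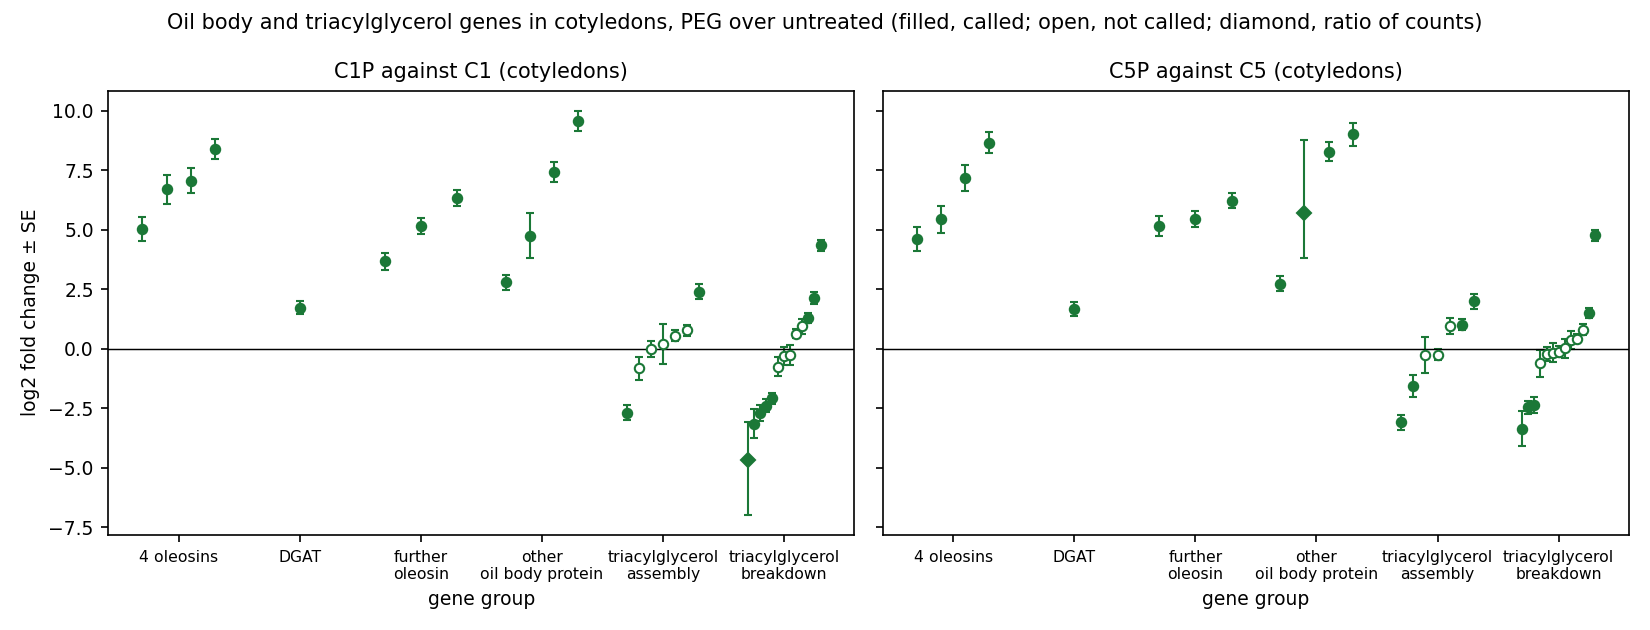
Log2 fold change of PEG-treated over untreated cotyledons for the 4 oleosins, the DGAT and the 27 tested genes of the list, by gene group, at 1 mm (left) and 5 mm (right). Circles carry SE bars, filled where called. Diamonds are ratios of summed counts for genes at 3 counts or fewer in a group, with 95% exact intervals for counting error only. All oleosins and other oil body proteins lie at or above 2.73 on the log2 scale, whereas genes of assembly and breakdown lie on both sides of 0.

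Between the stages, 6 of the 27 genes of the list were called without PEG and 3 with PEG. Between C5 and C1, 2 were higher and 4 lower, where 8.62% of all genes were called. The lowest were MtrunA17_Chr1g0186321 (-2.88) and MtrunA17_Chr4g0058681 (-2.44), and the higher ones were a putative fatty-acyl-CoA transporter gene, MtrunA17_Chr2g0309361 (1.69), and a putative acylglycerol lipase gene, MtrunA17_Chr3g0123881 (1.12). Between C5P and C1P, where 6.21% of all genes were called, 1 was higher, MtrunA17_Chr1g0194871 (2.85), and 2 were lower, MtrunA17_Chr3g0122181 (-1.79) and MtrunA17_Chr7g0227501 (-1.42). The PEG response differed between stages for 1 gene of the list, against 1.22% of all genes. This was the putative triacylglycerol lipase gene MtrunA17_Chr7g0225611 (1.96, adjusted p = 0.034, edgeR). The value above 0 was not a larger rise. That gene averaged 41.8 CPM in C1P, against 172 CPM in C1, and 33.4 CPM in C5P, against 34.7 CPM in C5.

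Between the tissues, 28 genes of the list were tested. After PEG at 1 mm, 7 were higher and 5 lower in C1P than in R1P, where 37.6% of all genes were called, a share close to that of the list. At 5 mm 9 were higher and 6 lower in C5P than in R5P, where 40.1% of all genes were called. The 3 further oleosins were all lower in C5P than in R5P, with log2 fold changes between -1.52 and -1.42, while none of the 4 other oil body proteins was called there (-0.31 to 0.72). At 1 mm, MtrunA17_Chr7g0227501 was lower in C1P (-1.19) and MtrunA17_Chr1g0186321 higher (1.15). Between C1 and R1, 11 were higher and 5 lower, and between C5 and R5, 9 were higher and 5 lower, where 45.4% and 44.9% of all genes were called. Without PEG, 2 of the 3 further oleosins and 3 of the 4 other oil body proteins were higher in C1 than in R1. The lowest of the list in C1 and C1P relative to radicles was a putative 1-acylglycerol-3-phosphate O-acyltransferase gene, MtrunA17_Chr2g0328811, with 0 counts in all C1P and C1 libraries, at least 15.5-fold lower in C1P than in R1P and at least 109-fold lower in C1 than in R1. A putative O-acyltransferase WSD1 gene, MtrunA17_Chr5g0393471, was higher in cotyledons by 2.40 in C1P over R1P and 2.58 in C5P over R5P. The second highest after PEG was the acylglycerol lipase gene MtrunA17_Chr3g0123881 in C1P over R1P (2.14), while in C5P over R5P the lipase gene MtrunA17_Chr1g0194871 was the highest (2.90). The second lowest in C1P was the lipase gene MtrunA17_Chr1g0156901, with 3 counts against 42 in R1P. That ratio was 0.0805 (95% exact interval 0.016 to 0.252, counting error only). The second lowest in C5P was another putative 1-acylglycerol-3-phosphate O-acyltransferase gene, MtrunA17_Chr4g0034511 (-2.75 over R5P). It came after MtrunA17_Chr2g0328811, with 2 counts in C5P, against 114 in R5P. Without PEG, the highest were MtrunA17_Chr7g0225611 (3.91) and the 2-acylglycerol O-acyltransferase gene MtrunA17_Chr6g0479331 (3.83) in C1 over R1, and the seipin gene MtrunA17_Chr7g0249331 (3.48) and MtrunA17_Chr7g0225611 (3.38) in C5 over R5. After MtrunA17_Chr2g0328811, which had 1 count in C5, against 720 in R5, the lowest were MtrunA17_Chr4g0034511 in C1 over R1 (-4.39) and the lipase gene MtrunA17_Chr4g0068441 in C5 over R5 (-3.70).

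The difference of log2 fold changes after PEG, cotyledons minus radicles, was called above 0 for 3 genes of the list at 1 mm. It was called below 0 for 4, where 8.25% of all genes were called. At 5 mm these counts were 5 and 7, where 21% of all genes were called. The oleosin MtrunA17_Chr7g0227501 was the lowest at both stages (-2.92 and -4.13), next to MtrunA17_Chr6g0479331 at 1 mm (-2.66) and MtrunA17_Chr7g0249331 at 5 mm (-2.99). The highest were MtrunA17_Chr3g0123881 (3.61) and MtrunA17_Chr2g0309361 (2.40) at 1 mm and MtrunA17_Chr4g0068441 (2.77) and MtrunA17_Chr3g0123881 (2.69) at 5 mm. A value above 0 need not be a larger response. At 1 mm MtrunA17_Chr3g0123881 averaged 20.75 CPM in C1P, against 4.57 CPM in C1, but 4.70 CPM in R1P, against 12.69 CPM in R1. MtrunA17_Chr2g0309361 also rose in cotyledons and fell in radicles there. At 5 mm MtrunA17_Chr4g0068441 averaged 2.37 CPM in C5P, against 2.55 CPM in C5, and 4.54 CPM in R5P, against 33.1 CPM in R5.

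The genes whose pattern over the 16 libraries was most like each gene were taken by Pearson correlation of log2(CPM + 1) among 11886 genes averaging 10 CPM or more. These values are a description, and the points share groups, replicates and scaling. By Spearman correlation, most of the genes named below were not among the nearest 3. The exceptions were MtrunA17_Chr2g0319551 for the *AtOLEO4* orthologue, and MtrunA17_Chr7g0227501 and MtrunA17_Chr1g0185301 for MtrunA17_Chr3g0139191. The *AtOLEO1* orthologue was nearest to MtrunA17_Chr8g0348171, a late embryogenesis abundant protein (0.99), the 1-Cys peroxiredoxin MtrunA17_Chr4g0052651 (0.99) and the oil body-associated MtrunA17_Chr3g0122181 (0.99). The *AtOLEO4* orthologue was nearest to the oleosins MtrunA17_Chr3g0139191 (0.989) and MtrunA17_Chr7g0227501 (0.987), and then to the putative AAI/SS protein MtrunA17_Chr2g0319551 (0.984). MtrunA17_Chr3g0139191 was nearest to the oleosin MtrunA17_Chr7g0227501 (0.995), a cupin domain protein, MtrunA17_Chr1g0185301 (0.995), and a putative aldose reductase, MtrunA17_Chr7g0243551 (0.992). MtrunA17_Chr2g0307331 was nearest to a short-chain dehydrogenase/reductase, MtrunA17_Chr1g0191751 (0.984), the 11-S storage protein MtrunA17_Chr1g0185821 (0.983) and MtrunA17_Chr4g0028591, with a nucleoside triphosphate hydrolase domain (0.980). The DGAT was nearest to a putative C2H2 transcription factor, MtrunA17_Chr3g0104431 (0.979), and to MtrunA17_Chr8g0387201 (0.978) and MtrunA17_Chr7g0245131 (0.975). Among the 4 oleosins themselves the correlation was between 0.853 and 0.988, and of the DGAT with them between 0.364, with MtrunA17_Chr2g0307331, and 0.633, with the *AtOLEO1* orthologue.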

How the data were processed

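RNA-Seq of 16 libraries gave single-end reads, which the authors assigned to the Mtv5 transcriptome with Salmon version 1.2. The authors deposited an expected count per gene, with no scaling for depth or length. Salmon shares a read between similar transcripts, so 15.3 to 21.6% of values per library were not whole, while the 4 oleosins had whole values in all 16 libraries. Values were rounded. All columns were mapped to samples by title, and 0 were unused.

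Counts were tested with edgeR version 4.0.16 in R version 4.3.3 (TMM, filterByExpr, quasi-likelihood test, Benjamini-Hochberg adjustment over all genes). Cotyledon comparisons used a model of the 8 cotyledon libraries (4 groups), and tissue comparisons used all 16. Each SE is the absolute log2 fold change divided by the square root of that test's F statistic, not a separate estimate. The limits for a call were an adjusted p of 0.05 and 1 on the log2 scale. The scripts were tested on simulated data. With 2 libraries a group, an exact permutation test of a single gene cannot go below p = 0.333, so only model-based p-values are given. Replicates are biological per the labels, but separate cultures are not described. The floor was 3 counts a library, for counting error only.

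The members, lists and tests were chosen with earlier results of these data known. Besides the 5 genes and the 3 further oleosins, the text names in the list of 29 genes the 2 highest and 2 lowest calls of a comparison, and the 3 genes most like each member, and others are named to describe a group. Alternatives were RLE factors, library totals, no filter, DESeq2 version 1.42.0, the adjusted p alone, other libraries in the model, a replicate block and each library left out. For the genes most alike, the alternative was Spearman correlation. No identifier (0) matched the RefSeq table used here, so no sequence or coordinate is given.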

Additional observations from a re-analysis of the deposited data

Results flagged for a closer look

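The PEG response differed between cotyledons and radicles in 5 tests, each of the difference itself in edgeR's model of 16 libraries, given as cotyledons minus radicles on the log2 scale. At 1 mm the *AtOLEO4* orthologue was at -3.79 (SE 0.54, adjusted p = 0.0011) and MtrunA17_Chr3g0139191 at -2.64 (SE 0.57, adjusted p = 0.012). At 5 mm the *AtOLEO4* orthologue was at -2.24 (SE 0.53, adjusted p = 0.0089), MtrunA17_Chr3g0139191 at -4.16 (SE 0.70, adjusted p = 0.0012) and the DGAT at 1.06 (SE 0.30, adjusted p = 0.021). The value of the DGAT lies at the limit of 1, and its call was lost with RLE factors (0.99) and with DESeq2 (0.99). With a library left out, MtrunA17_Chr3g0139191 at 1 mm lay between -3.23 and -2.23, and its call was not always kept. All 5 genes were chosen by the study on the radicle response, so the radicle side is not independent.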

How the results depend on the processing

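The 5 calls between C1P and C1 and between C5P and C5 were made in each alternative. Between C5 and C1, where 1 gene was called, the count was 2 with library totals, no filter, DESeq2 or all 16 libraries, and 0 to 3 with a library left out. Between C5P and C1P, also 1, it was 4 with no filter, DESeq2 or all 16 libraries, and 0 to 2 with a library left out. Between C5 and R5, where 5 were called, it was 3 with the replicate block, 3 with only the compared groups in the model and 2 to 4 with a library left out, and the *AtOLEO4* orthologue (1.08) lay between -0.057 without C5 replicate 1 and 1.71 without C5 replicate 2. Between C5P and R5P, where 4 were called, it was 2 with the replicate block and 3 to 4 with a library left out. For the tissue difference of the PEG response at 1 mm, where 2 were called, it was 1 to 2, and at 5 mm, where 3 were called, 2 to 4, with a library left out. The causes were not tested.

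Of 664 single-gene values under alternatives, 588 kept direction and call, 30 lost the call, 19 gained it, 1 reversed and 26 uncalled values moved. Library totals shifted the median of all genes by -0.58 between C1P and C1, 0.42 between C5P and C1P, 0.48 for stage by PEG, -0.23 for tissue by PEG at 1 mm and 0.11 between C1 and R1. They turned no called gene here. With them the DGAT was not called between C5P and R5P (-0.90), and MtrunA17_Chr3g0139191 was called between C1 and R1 (1.11). For the list of 29, 17 to 18 genes were called between C1P and C1 and 13 to 17 between C5P and C5, in settings added after seeing the data.

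Replicate numbers were not shown to pair libraries: the correlation of same-numbered deviations lay between -0.56 and 0.302 over 28 pairs of groups, and was over 0.1 in 8. With the replicate number as a block, the calls over all genes fell to 2 for stage by PEG (282 without it), 391 between C5P and C1P (1433) and 1260 between C5 and C1 (1988), and the *AtOLEO4* orthologue was not called between C1P and R1P (-1.11, adjusted p = 0.063, edgeR), which left 3 calls of 4. Depth limits the untreated oleosin levels, which for the 4 oleosins rest on 0 to 280 counts a library.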
